A study of Mus musculus with 7 samples.

Results

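The T cell receptor variable segments analysed here are the Trav rows (alpha chain) and Trbv rows (beta chain) of the deposited gene count tables that reached at least 10 counts summed over all 7 libraries. This gave 85 of 165 such rows, among 53656 gene rows in all: 66 of 130 Trav rows and 19 of 35 Trbv rows. The rows just inside the minimum were Trbv13-3 and Trbv21 with 10 counts, Trav6n-5 and Trav6-4 with 13, and Trav3-1, Trav10n and Trbv17 with 14. Just outside it were Trav2, Trav4d-2 and Trav6d-3 with 9 counts, Trav6-2 with 8, and Trbv11, Trav1 and Trav6d-4 with 7.

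The series measured RNA in mouse OT1 CD8 T cells sorted by CD8 and CD45.1 from tumours of the B16-OVA-GP61 melanoma line. OT1 cells carry a transgenic receptor for a peptide of ovalbumin (OVA), whereas SMARTA cells are CD4 T cells whose transgenic receptor sees the GP61 peptide. In 4 libraries the tumours held OT1 cells without SMARTA cells, and in the other 3 SMARTA CD4 T cells were also given. Both groups share the tumour line, the OT1 receptor and the sort, and the labels give neither the age nor the strain of the hosts. Nothing in the labels ties the replicates of a group to different mice, and the p-values therefore reflect only how much these 7 libraries vary, which may be technical.

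A T cell builds each receptor chain by joining a variable segment to joining and constant segments, with a diversity segment in addition for the beta chain. RNA of a joined chain therefore holds the variable segment of that chain. Gene counts do not tell such RNA from other RNA of the same segment. In a population with one transgenic receptor, most cells carry the same pair of chains. From textbook knowledge, the OT1 receptor pairs Vα2, encoded by the Trav14 family, with Vβ5, encoded by Trbv12-1 and its close relative Trbv12-2, whereas SMARTA pairs Vα2 with Vβ8.3, encoded by Trbv13-1. Variable segments of one family can be near copies of each other, and in the mouse alpha locus whole blocks of segments occur again as so-called D and N copies.

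The following windows show how far the segments that matter here can be told apart by sequence. All are 120 bases of the plus strand of GRCm38, 5′ to 3′, from GENCODE M21 transcripts, and capitals mark the positions that differ within each set. The first set is the OT1 beta segment and its relative, which differ at 20 positions of the window and are 89.1% identical over 293 aligned bases.
Trbv12-1, chr6:41113835-41113954, plus strand: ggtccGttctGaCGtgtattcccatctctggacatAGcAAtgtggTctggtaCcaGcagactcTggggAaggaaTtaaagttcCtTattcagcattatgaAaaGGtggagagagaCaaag
Trbv12-2, chr6:41119132-41119251, plus strand: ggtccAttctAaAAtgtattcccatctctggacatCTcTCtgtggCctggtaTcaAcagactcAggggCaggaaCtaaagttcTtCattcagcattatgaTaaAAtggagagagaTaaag

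The second set holds Trbv13-2, the most abundant beta segment after Trbv12-1, with Trbv13-1 of the SMARTA receptor and Trbv13-3. In the window Trbv13-1 differs from Trbv13-2 at 14 positions and Trbv13-3 differs from it at 11.
Trbv13-2, chr6:41121599-41121718, plus strand: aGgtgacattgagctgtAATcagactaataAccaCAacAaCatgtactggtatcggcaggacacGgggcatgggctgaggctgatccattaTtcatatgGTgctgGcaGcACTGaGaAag
Trbv13-1, chr6:41116235-41116354, plus strand: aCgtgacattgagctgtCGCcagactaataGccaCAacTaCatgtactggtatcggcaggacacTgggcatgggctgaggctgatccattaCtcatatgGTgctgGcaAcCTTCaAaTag
Trbv13-3, chr6:41130352-41130471, plus strand: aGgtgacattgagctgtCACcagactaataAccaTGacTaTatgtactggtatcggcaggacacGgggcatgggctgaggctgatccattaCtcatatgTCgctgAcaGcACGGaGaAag

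The third set comes from the Trav14 family, which both transgenic receptors use. Trav14d-1 and Trav14n-1 are identical over all 312 aligned bases, and Trav14-1 and Trav14-3 each differ from them at 7 positions of the window.
Trav14d-1, chr14:52855915-52856034, plus strand: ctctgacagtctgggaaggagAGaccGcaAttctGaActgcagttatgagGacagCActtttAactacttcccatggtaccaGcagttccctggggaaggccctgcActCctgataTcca
Trav14n-1, chr14:53166927-53167046, plus strand: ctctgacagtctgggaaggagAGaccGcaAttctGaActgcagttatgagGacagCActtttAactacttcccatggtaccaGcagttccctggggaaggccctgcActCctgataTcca
Trav14-1, chr14:53554307-53554426, plus strand: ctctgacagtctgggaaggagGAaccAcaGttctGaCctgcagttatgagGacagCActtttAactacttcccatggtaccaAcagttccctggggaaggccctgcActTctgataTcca
Trav14-3, chr14:53763443-53763562, plus strand: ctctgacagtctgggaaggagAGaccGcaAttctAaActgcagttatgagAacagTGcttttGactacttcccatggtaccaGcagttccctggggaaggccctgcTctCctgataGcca

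Uniqueness was measured as the percentage of a row's 50-base words, the length of 1 read, found in no other GENCODE gene on either strand. Reads that map to several places were left out by the authors' counting, so a segment without unique words can hardly be counted. Among the 42 Trav rows without a unique word, 40 were at 0 counts in all libraries and 2 (Trav11 and Trav11d) had 1 to 9 counts. The 19 Trbv members each had at least 98.8% unique words, while 3 Trbv rows under the minimum (Trbv4, Trbv5 and Trbv8) had 27.9%, 22.6% and 0%. Of the Trbv segments described below, Trbv12-1 had 100% unique words, Trbv12-2 98.8%, Trbv13-2 99.7% and Trbv13-1 100%. In the Trav14 family the values ran from 0 for Trav14d-1, Trav14d-2, Trav14n-1 and Trav14n-2 to 95.1% for Trav14-1.

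**Figure D1:**
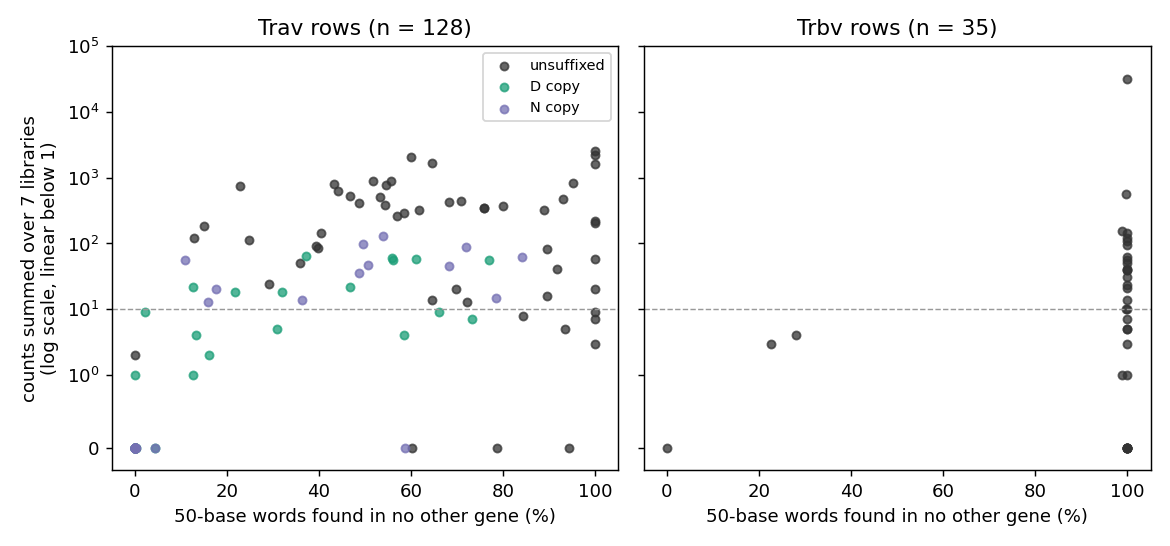
Counts summed over 7 libraries (y axis, log scale above 1 and linear below) against the percentage of 50-base words found in no other gene (x axis), 1 point per row matched in GENCODE M21, with the dashed line at the minimum of 10 counts. No Trav row at 0% unique words reaches the line, while all Trbv rows above it sit at or near 100%.

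Library totals ran from 38092722 to 49438357 assigned read pairs. The CD8 label was checked against its markers: Cd8a was at 1028 to 1948 CPM (counts per 1000000 counts of the library, scaled by the TMM method) and Cd4 at 0.650 to 8.48. Cd8b1 was at 1211 to 1902 CPM without and 2004 to 2640 CPM with SMARTA, with no overlap. Its difference was uncalled (log2 fold change 0.65 ± 0.19, SE, edgeR adjusted p = 0.111). Of the 6 CD8 T cell markers, 5 had positive log2 fold changes with SMARTA, Cd8a had a negative one, and edgeR called 0. The 4 haemoglobin genes, markers of red blood cells, summed to 4483 CPM of the library total in with-SMARTA replicate 1 and to 9.09 to 209 CPM in the other 6 libraries. The 6 CD4 T cell markers went both ways. Their sum, carried by Tnfrsf4 in the libraries without SMARTA, was 323 to 442 CPM without and 153 to 278 CPM with SMARTA. Tnfrsf4 and Cxcr5 were lower and Cd40lg and Zbtb7b higher in every library with SMARTA, and Cd4 and Foxp3 overlapped. By edgeR 0 of the 6 were called and 4 had an unadjusted p under 0.05, which 18.6% of all genes tested had. Cd40lg was at 47.6 ± 18.7 CPM (SD, n = 4) without and 99.0 ± 12.3 CPM (SD, n = 3) with SMARTA on the TMM scale. The part of these markers in the results on segments was not tested. Over all genes tested, edgeR called 500 of 15896 (3.15%), 1.52% higher and 1.63% lower with SMARTA.

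Trbv12-1, the OT1 beta segment, made up nearly all Trbv counts in every library. Its share was 96.8%, 97.0%, 94.1% and 97.5% in the libraries without SMARTA (replicates 1 to 4) and 92.2%, 94.95% and 90.4% in those with SMARTA (replicates 1 to 3). The groups overlapped, since without-SMARTA replicate 3 lay below with-SMARTA replicate 2, and 2 of 3 with-SMARTA libraries lay below all 4 others. The mean was 96.4% ± 1.51 (SD, n = 4) without and 92.5% ± 2.29 (SD, n = 3) with SMARTA, a difference of -3.84 percentage points that did not pass the test (exact permutation test over 35 splits, two-sided, p = 0.0857, 0.257 after Benjamini-Hochberg adjustment over 3 share tests, smallest possible p 0.0286). In bulk RNA, fewer cells with a segment and less RNA of it per cell cannot be told apart. Counting error was smaller than this spread: the 95% Wilson interval was 97.1% to 97.8% in without-SMARTA replicate 4 and 89.4% to 91.3% in with-SMARTA replicate 3, covering counting error only.

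The level of Trbv12-1 varied widely within both groups. Its level was 106 ± 23.2 CPM (SD, n = 4) without and 89.3 ± 24.5 CPM (SD, n = 3) with SMARTA on the TMM scale, with a log2 fold change of -0.25 ± 0.26 (SE, edgeR adjusted p = 0.687). Per kilobase of row length it averaged 255 CPM, against 22.3 for Trav21-dv12, the highest Trav segment.

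**Figure D2:**
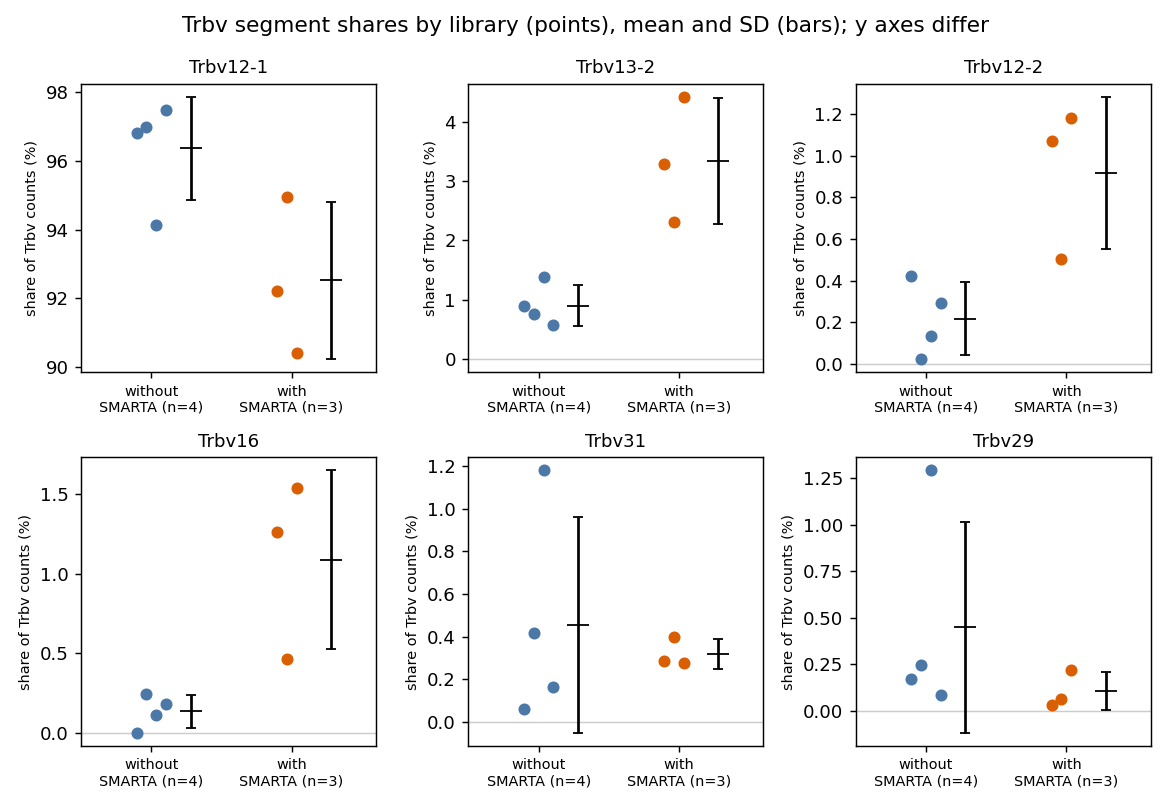
Share of Trbv counts (%) of 6 Trbv segments in each library (points), with the mean and SD (bars) of the 4 libraries without and the 3 with SMARTA; the y axes differ and that of Trbv12-1 does not start at 0. Trbv12-1 overlaps between the groups, and Trbv13-2, Trbv12-2 and Trbv16 do not.

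Trbv13-2 (Vβ8.2) ranked second among the Trbv segments in all 7 libraries. Its share was 0.892%, 0.761%, 1.38% and 0.568% without SMARTA, from 57, 31, 62 and 35 counts, and 3.28%, 2.30% and 4.42% with SMARTA, from 104, 110 and 161 counts. All 3 with-SMARTA libraries lay above all 4 others. On the CPM scale its log2 fold change was 1.74 ± 0.47 (SE), which did not pass in edgeR (adjusted p = 0.0854) and passed in DESeq2 (adjusted p = 0.00915). Among Trbv counts other than Trbv12-1, a measure chosen after the values were seen, Trbv13-2 took 22.6% to 28.1% without and 42.1% to 46.1% with SMARTA.

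Trbv13-1, the segment of the SMARTA receptor, was at the limit of detection. It had 2 counts in without-SMARTA replicate 3, 3 counts in with-SMARTA replicate 3 and 0 in the other 5 libraries. With 3 counts as the limit that a count of 0 allows, its share could reach 0.0470% to 0.0947% of Trbv counts in a library. Its mean share was 0.0111% ± 0.0223 (SD, n = 4) without and 0.0275% ± 0.0475 (SD, n = 3) with SMARTA (exact permutation p = 0.714), and a difference was not detectable at this depth. The related Trbv13-3 (Vβ8.1) had between 0 and 5 counts in a library.

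Of the 17 Trbv segments under a mean share of 1%, 3 had shares that did not overlap between the groups (Trbv16, Trbv12-2 and Trbv24). By level, 19.2% of all genes tested did not overlap, so a count of this size is not particular to these segments. Trbv16 was at 0 to 0.246% without and at 1.26%, 0.461% and 1.54% with SMARTA (log2 fold change 2.85 ± 1.06, SE, edgeR adjusted p = 0.194). Trbv12-2 was at 0.0246% to 0.423% without and at 1.07%, 0.503% and 1.18% with SMARTA (log2 fold change 1.66 ± 0.94, SE, edgeR adjusted p = 0.405). Trbv16 and Trbv12-2 passed the edgeR filter on low counts only through the libraries with SMARTA. Trbv24, a pseudogene in GENCODE, had 2 counts without and 19 with SMARTA, so it reached the minimum of 10 only through the group where it was high, and it was not tested. Trbv31, which lies beyond the constant segments in inverted orientation, and Trbv29 overlapped between the groups, and both were highest in without-SMARTA replicate 3, at 1.18% and 1.29%.

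**Figure D3:**
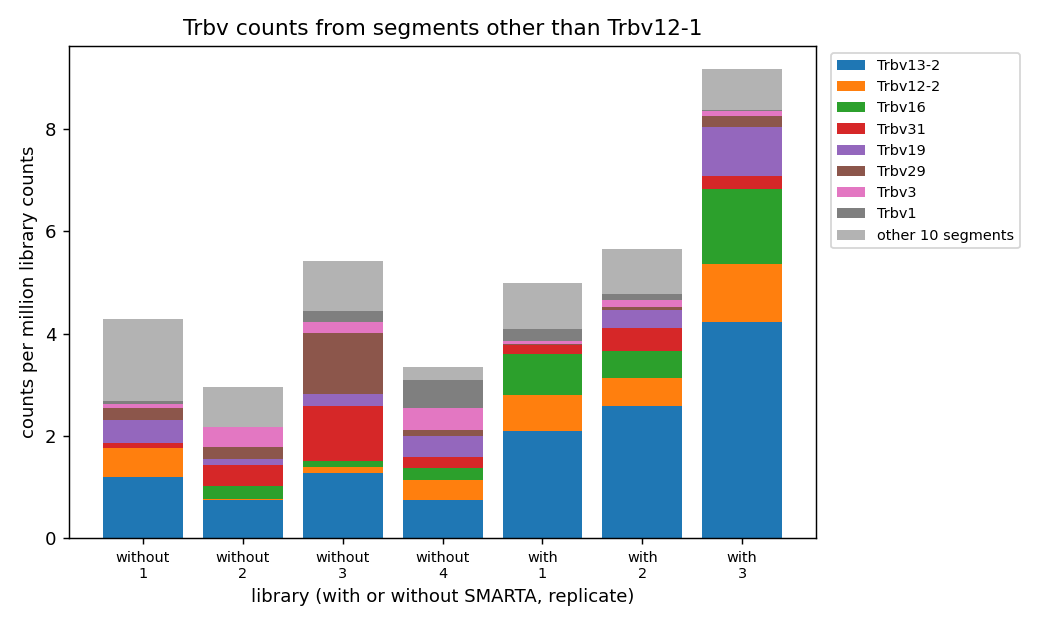
CPM of the library total (y axis) of the Trbv segments other than Trbv12-1, stacked by segment, 1 bar per library. The stacks reach 2.95 to 5.41 without SMARTA and 4.996 to 9.16 with SMARTA, and Trbv13-2 is the widest band of each with-SMARTA bar.

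The alpha chain looked different: no annotated Trav segment led the counts as Trbv12-1 did. Whether transcripts of the OT1 and SMARTA alpha transgenes were assigned to the annotated Trav14 rows was not tested, so these shares describe counted reads and not the cells' receptors. The effective number of segments (the number of equally used segments that would give the same diversity) was 18.3 to 22.6 for Trav and 1.05 to 1.22 for Trbv. Trav21-dv12 had the highest mean share, 10.1%, followed by Trav17 with 9.13%, Trav3-3 with 8.26%, Trav8-2, a pseudogene in GENCODE, with 6.93%, and Trav19 with 6.49%. The first place went to Trav21-dv12 in 5 libraries, to Trav3-3 in without-SMARTA replicate 3 and to Trav17 in without-SMARTA replicate 4. Together the 27 Trav segments with a mean share of at least 1% held 88.7% to 91.1% of Trav counts.

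**Figure D4:**
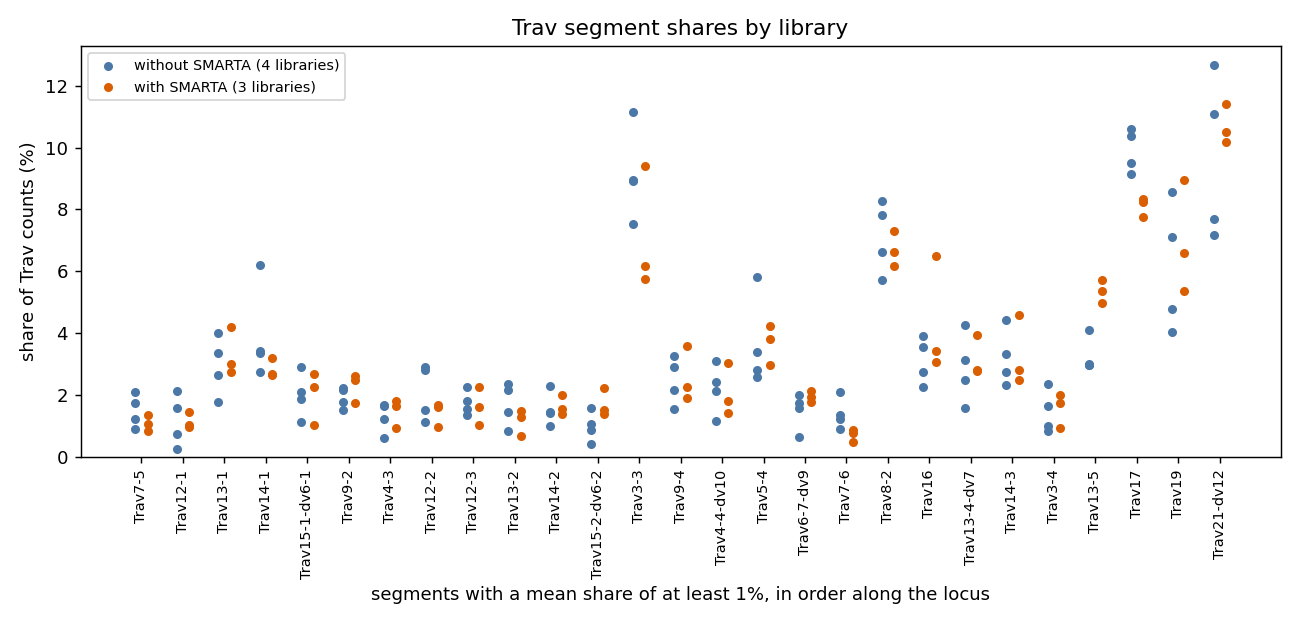
Share of Trav counts (%) of the 27 segments with a mean share of at least 1% (x axis, in order along the locus), 1 point per library in each group. Trav21-dv12, Trav17, Trav3-3, Trav8-2 and Trav19 are the highest on average, and Trav13-5, Trav17 and Trav7-6 are the segments whose groups do not overlap.

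The counted segments lay mostly at the end of the locus nearest the joining segments. On chromosome 14 the Trav rows span 52427928 to 53977678 in GRCm38, and when this span is cut into 3 equal stretches, the last stretch held 93.1% to 96.4% of Trav counts. The rows without a D or N suffix held 94.4% to 96.7%. The D and N copies also had fewer unique words, with a median of 0% in both against 64.6% in the unsuffixed rows, and the part of this in their low counts was not tested.

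The Trav14 family, which encodes Vα2, held 7.73% to 11.0% of Trav counts. Its member with the highest mean share, Trav14-1, was at 2.73%, 3.34%, 6.22% and 3.43% without SMARTA and at 3.19%, 2.65% and 2.68% with SMARTA. The groups overlapped, and without-SMARTA replicate 3 stood highest. The mean was 3.93% ± 1.56 (SD, n = 4) against 2.84% ± 0.302 (SD, n = 3), a difference of -1.09 points that did not pass (exact permutation p = 0.257, 0.386 after adjustment) and was -0.33 points without that library. Trav14-3 averaged 3.24% and exceeded Trav14-1 in 3 libraries, and without without-SMARTA replicate 3 the order turned, with means of 3.0% for Trav14-1 and 3.4% for Trav14-3. The others averaged less, Trav14-2 1.58%, Trav14n-3 0.5005% and Trav14d-3-dv8 0.252%. Unique words made up 95.1% of Trav14-1, 54.4% of Trav14-2 and 43.3% of Trav14-3, and the part of this in their order was not tested. Trav14d-1, Trav14d-2, Trav14n-1 and Trav14n-2, the 4 rows with no unique word, were listed at 0 in all libraries, so the summed family leaves out any reads they share with the others.

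Among the Trav shares, 3 were higher with SMARTA in every library and 5 were lower in every library. By level on the TMM CPM scale, 11 of the 43 tested Trav segments were higher without overlap and 1, Trav9n-4, was lower. Over all genes tested, 8.73% were higher and 10.5% lower with SMARTA without overlap. Trav13-5 was at 2.96%, 4.11%, 2.98% and 2.97% without and 5.37%, 4.97% and 5.73% with SMARTA. It had no match in GENCODE M21, so its unique words were not measured. Trav23, the last Trav segment of the locus, with 100% unique words, was at 0.173%, 0.487%, 0.0933% and 0.593% without and 1.53%, 1.27% and 1.19% with SMARTA. Both were uncalled by edgeR, with log2 fold changes of 1.30 ± 0.33 (SE, adjusted p = 0.0698) and 2.58 ± 0.73 (SE, adjusted p = 0.0974), and both were called by DESeq2 (adjusted p = 0.00134 and 0.0185). Trav23 passed the filter on low counts only through the libraries with SMARTA. The third, Trav11n, had 1 count without and 14 with SMARTA, so it reached the minimum only through the group where it was high.

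Trav17 was the most abundant of the 5 lower ones. Its share was 10.4%, 9.50%, 10.6% and 9.13% without and 8.33%, 8.23% and 7.76% with SMARTA. Its level on the TMM scale was higher in all 3 with-SMARTA libraries, 7.92 ± 0.742 CPM (SD, n = 3) against 6.51 ± 0.729 CPM (SD, n = 4). The margin was narrow, 7.35 CPM in with-SMARTA replicate 2 against 7.31 CPM in without-SMARTA replicate 1. Share and mean level thus differed in direction, and the level was uncalled (log2 fold change 0.28 ± 0.27, SE, edgeR adjusted p = 0.648). Trav7-6, Trav13-3, Trav9n-4 and Trav14d-3-dv8 were the other 4, of which the levels of Trav7-6, Trav13-3 and Trav14d-3-dv8 overlapped. Trav14d-3-dv8 was under the filter on low counts and was not tested. Trav9n-4 had 49 counts without and 7 with SMARTA, so it too reached the minimum through 1 group alone.

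With the Trbv segments, 12 of the 85 shares did not overlap between the groups, and in 9 of these both groups reached 10 counts. Of the 85 segments, 51 passed the filter on low counts (43 Trav and 8 Trbv). By level on the TMM CPM scale, 15 of the 51 did not overlap, 14 higher and 1 lower with SMARTA, where over all genes tested 19.2% did not overlap, 8.73% higher and 10.5% lower. Segments under the filter are not in this count, and some passed it only through the group where they were high. Trav23, Trbv16, Trbv12-2 and Trav12-4 passed it only through the libraries with SMARTA, and Trav9n-4 only through those without. For these segments the filter itself favoured a difference between the groups. By edgeR 0 of these 51 were called, 7 had an unadjusted p under 0.05, which 18.6% of all genes tested had, and DESeq2 called 3 of 51, all 3 higher with SMARTA, where it called 11% of all genes with an adjusted p, 5.18% as higher. The median log2 fold change was 0.59 over the 43 Trav segments, 37 of them positive, and 0.21 over the 8 Trbv segments, 4 of them positive, against a median of -0.00338 over all genes tested.

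The Trav counts as a whole made up more of the libraries with SMARTA. Their sum was 73.4, 69.5, 66.2 and 65.5 CPM of the library total without and 100.2, 86.8 and 88.0 with SMARTA, with no overlap, and with-SMARTA replicate 1, the library with high haemoglobin counts, was the highest. The Trbv sum overlapped, at 92.5 to 134.8 without and 64.1 to 111.8 with SMARTA. Per 100 counts of Trac, the alpha constant segment, Trav segments had 6.24 to 8.46 counts without and 7.58 to 8.35 with SMARTA, which overlapped. Trac itself overlapped by library total and did not on the TMM scale. There it was at 833 to 1025 CPM without and 1069 to 1338 CPM with SMARTA, uncalled (log2 fold change 0.42 ± 0.16, SE, edgeR adjusted p = 0.206).

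Trdc, the delta constant segment, whose locus lies inside the alpha locus, was the one constant segment of 7 tested that edgeR called. On the TMM scale it was at 194, 191, 171 and 164 CPM without and 389, 366 and 382 CPM with SMARTA, so the groups did not overlap. It rose with SMARTA (log2 fold change 1.077 ± 0.15, SE, edgeR adjusted p = 0.0169). This call was lost when without-SMARTA replicate 1, 3 or 4 was left out (adjusted p = 0.0504, 0.0590 and 0.0812) or with-SMARTA replicate 2 or 3 (adjusted p = 0.0614 and 0.0583). Of the other gamma delta T cell markers, Sox13, Blk and Zbtb16 were at 0 to 2.15 CPM in every library, with no separation of the groups. The gamma constant segments were higher on average with SMARTA for Tcrg-C4, Tcrg-C1 and Tcrg-C2, and 0 of them was called by edgeR. Tcrg-C4 was at 1.54, 0, 0.467 and 0.316 CPM without and 10.2, 6.29 and 6.59 CPM with SMARTA, with no overlap (log2 fold change 3.72 ± 1.06, SE, edgeR adjusted p = 0.0998). Tcrg-C1 also did not overlap, at 0 to 0.738 and 0.742 to 1.49 CPM, and Tcrg-C2 and the gamma variable segment Trgv2 overlapped. The part of these segments in the Trdc result was not tested. Reads were counted without strand, so a read from an overlapping antisense transcript would be counted too. Trdv segments summed to 18.3 to 29.1 CPM of the library total without and 40.4 to 41.0 with SMARTA. By edgeR 0 of the 4 tested were called and 3 had an unadjusted p under 0.05, which 18.6% of all genes tested had. Traj segments gave 0 calls of 49 tested with a median log2 fold change of -0.30, and Trbj1 and Trbj2 gave 0 calls of 7 each, all with positive values. Among all genes tested, edgeR called 3.15%. By level without overlap, 1 Traj segment was higher and 5 were lower with SMARTA. For Trbj2, 4 were higher and 0 lower, and for Trbj1 0 were either. The shares of all genes tested were 8.73% higher and 10.5% lower.

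**Figure D5:**
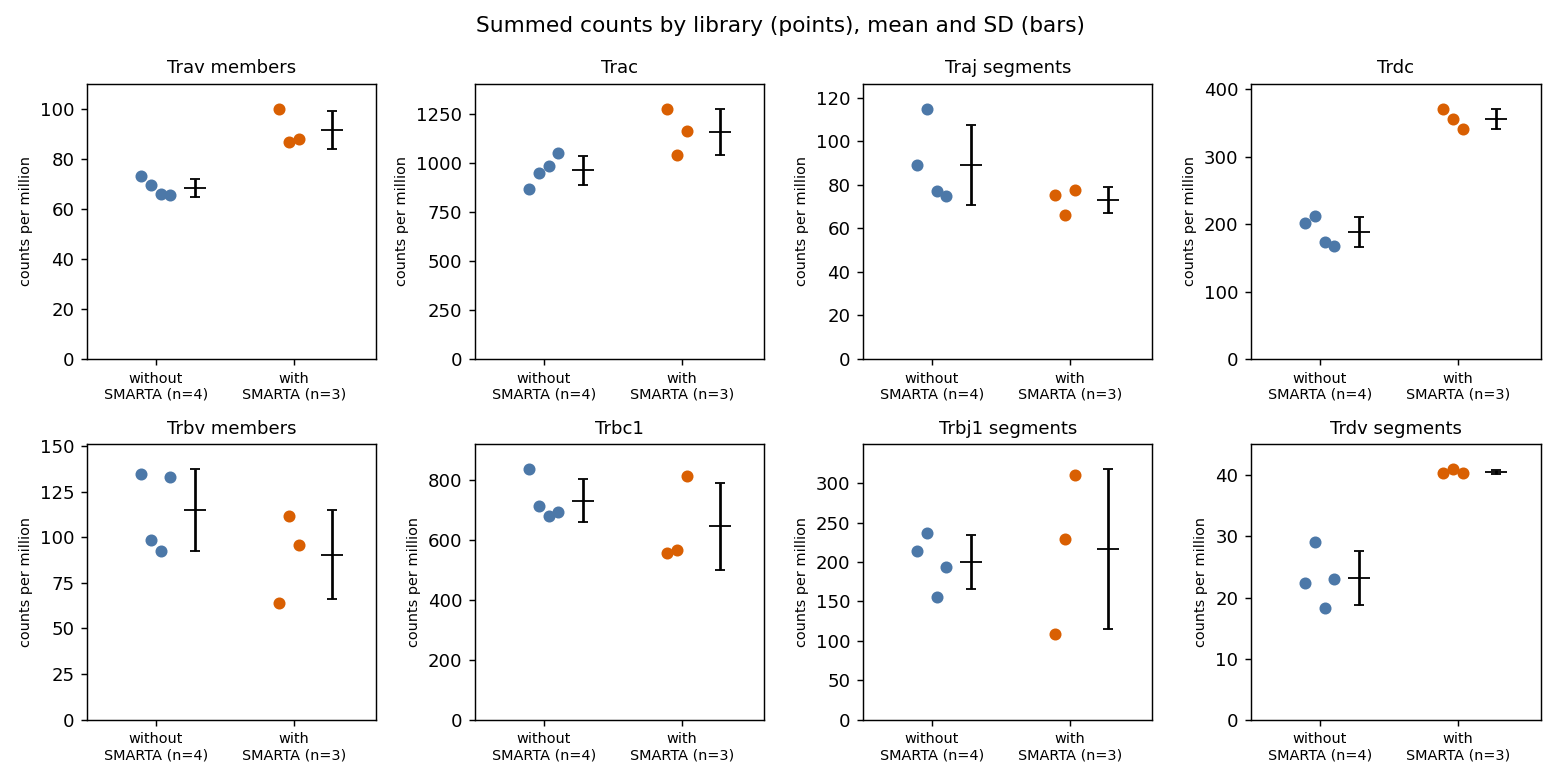
CPM of the library total (y axes, from 0) of summed Trav, Traj, Trbv, Trbj1 and Trdv segments and of Trac, Trbc1 and Trdc, per library (points) with the mean and SD (bars) of the 4 libraries without and the 3 with SMARTA. Trav, Trdc and Trdv do not overlap between the groups, and the other 5 panels do.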

How the data were processed

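RNA of 7 libraries (4 without and 3 with SMARTA cells) was amplified with a SMART-seq kit and sequenced as paired reads, per the labels' protocols. The deposited values are whole-number counts per gene made by the authors with featureCounts 1.6.2 per the file headers, unstranded and with multi-mapping reads left out, on GENCODE gene names. The submitters' processing notes name STAR 2.6.0c and GRCm38.p6.

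The members and lists were chosen with earlier results of these data known. Shares were taken per library over the members of a locus (Trbv13-1, which is no member, was added to its own denominator). They were compared by an exact permutation test over the 35 splits, counting splits whose absolute difference of means was at least the observed one. The plan said only two-sided, and this definition replaced doubling the smaller tail after both results were seen. Doubling gave an exact permutation p = 0.114 for Trbv12-1, 0.857 for Trbv13-1 and 0.114 for Trav14-1, and cannot go below 0.0571.

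Counts of all genes were fitted with edgeR 4.0.16 (R 4.3.3, filterByExpr, TMM, robust quasi-likelihood, Benjamini-Hochberg), calling adjusted p under 0.05, with DESeq2 1.42.0 and limma 3.58.1 as alternatives. On simulated data for this comparison, the edgeR fit found 36% of the genes changed 4-fold and 1% of those changed 2-fold at the spread of these libraries (15200 genes), and 96% and 87% at a small spread (15643 genes). The changed genes were drawn at random from all genes tested, so these percentages do not describe the segments. An earlier simulation with the same spread for every gene found fewer of the 4-fold changes and was replaced by this one. Named were segments with a mean share of at least 1%, all Trav14 segments, Trbv12-1, Trbv12-2 and the Trbv13 group. The other segments named, such as Trav23, Trbv16 and Trbv24, were chosen after their values were seen. Of the Trav and Trbv rows, 128 of 130 and 35 of 35 matched GENCODE M21. Every 2 libraries of a group differed by more than counting noise, with a chi-square of 93.5 to 444 per degree of freedom. Same-numbered libraries did not deviate together (correlations -0.139, 0.0263 and -0.274), so the fits are unpaired.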

Additional observations from a re-analysis of the deposited data

Results flagged for a closer look

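Shares of 41 segments were checked in the 4 libraries without SMARTA for a library far from the other 3, which chance gives in about 1 of 20 such groups, and 3 were found. Trav13-5 was at 4.11% of Trav counts in replicate 2 and at 2.96% to 2.98% in the others. Trav14n-3 was at 0.870% in replicate 2 and at 0.249% to 0.316% in the others. Trbv29 was at 1.29% of Trbv counts in replicate 3 and at 0.0811% to 0.246% in the others.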

How the results depend on the processing

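The number of members called by edgeR was 0 in the fit reported and stayed 0 in 16 of 17 alternatives. These were the relative log expression, upper-quartile and total-count scalings, both filters, limma-voom, a non-robust fit, an adjusted p under 0.01, the replicate block and each library left out. Not all of them could have changed the count. The cut at 0.01 used the same fit and could only give 0, and the filter at 5 CPM in at least 3 libraries left 6 members tested. DESeq2 called 3 of 51 (Trav13-5, Trav23 and Trbv13-2), against 11% of all genes. With the replicate block, 0 members and 0 of all genes were called, and Trdc had an edgeR adjusted p of 0.326. Its other losses are given above, and an adjusted p of 0.01 also ended its call. Leaving out libraries changed the count over all genes from 500 to between 17 and 907.

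The difference in the Trbv12-1 share was -14.5 points (exact permutation p = 0.0286) with all Trav and Trbv counts as denominator, which also holds the Trav counts. It was -2.79 to -5.06 points with a library left out. For Trbv13-1 the range was -0.0111 to 0.0301 points, with the reversal when with-SMARTA replicate 3 was left out. For Trav14-1 it was -0.33 to -1.49. The count of 12 shares without overlap became 10 to 15 in 4 alternatives chosen after seeing the data.

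Several uncalled log2 fold changes near 0 changed sign, and the cause was not tested. With library totals alone, which moved the median of all genes to -0.16, Trav7-5 was at -0.048, Trav14-1 at -0.030 and Trav12-2 at -0.10. Trav13-2 was at 0.012 in limma-voom, and with the replicate block Trav13-2 was at 0.20 and Trav7-5 at -0.076. With a library left out, the ranges were -0.045 to 0.43 for Trav14-1, -0.19 to 0.24 for Trav12-2, -0.23 to 0.21 for Trav13-2, -0.086 to 0.31 for Trav7-5, -0.11 to 0.41 for Trav3-3, -0.29 to 0.10 for Trbc1 and -0.12 to 0.053 for Trbc2. At these depths a segment with under 3 counts in a library cannot be told from 0, and the self-test recovered few 2-fold changes.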
